A study of Mus musculus with 72 samples.

Results

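The cells described here were 80 Pet1 neurons of the adult mouse dorsal raphe (DR) with the highest joint expression of Tmeff2, Calb2, Adcy2, Npy2r, Nrp2 and Rasgrp1, sequenced by the 10X single-cell method and set against the 2270 other cells of the same table. They were chosen by measured values. Counts were scaled to 10000 per cell, log-transformed and converted to z-scores over all cells. The 80 highest means over these 6 genes were then taken among the 2150 cells with a Tph2 level of at least 1000 CPM (the count of a gene scaled to a fixed library total), Tph2 being the rate-limiting enzyme of serotonin synthesis in neurons. The 6 genes and Tph2 chose the cells, so their levels are a description and were left out of every count.

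The study profiled DR neurons of the Pet1 lineage in 2 ways. For the 10X table, fluorescent cells of the full DR were sorted from mice of the genotype Pet1::Flpe+/-; hM3Dq+/+ (mean age P65.5) and of the genotype En1::cre+/-; Pet1::Flpe+/-; RC::FrePe+/- (mean age P59). All of these cells had a history of the Pet1::Flpe driver, and in the second genotype EGFP also required En1::cre. For the second data set, 70 cells in 8 groups were sorted manually from DR subdomains of mice carrying Sert::cre, P2ry1::cre, Npy2r::cre or Crh::cre with Pet1::Flpe and RC::FrePe, at ages from P62 to P119, and each cell was deposited as a sample of its own.

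Pet1 (Fev) is an ETS-family transcription factor that directs the serotonergic programme, including Tph2, the serotonin transporter Slc6a4 and the vesicular monoamine transporter Slc18a2. DR serotonin neurons differ in the other transmitters, receptors and adhesion molecules they express. Of the genes behind the score, Calb2 encodes the calcium-binding protein calretinin, Adcy2 an adenylyl cyclase, Npy2r a neuropeptide Y receptor, Nrp2 a semaphorin and VEGF co-receptor, Rasgrp1 a Ras exchange factor, and Tmeff2 a transmembrane protein with follistatin-like domains.

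Column names of the 10X table give neither an animal nor a genotype, so the table counted as 1 sample and cells were not treated as replicates. No test between cells was made and no p-value is given. Levels are CPM of summed UMIs, and their 95% intervals (exact Poisson for levels, exact conditional binomial for ratios, Clopper-Pearson for shares) cover counting error only. Barcode endings split the table into 2 unnamed barcode sets of 869 and 1481 cells, which shared 0 barcodes. Of the members, 15 were in set 1 and 65 in set 2. Set 1 thus held 18.8% of the members (95% interval 10.9 to 29.0%) against 37.0% of all cells (35.0 to 39.0%). Members had a median of 52769 UMIs per cell (15468 to 87093) and other cells a median of 59800 (12320 to 134079). The share of ribosomal protein transcripts had a median of 8.78% in members and 10.1% in other cells, and its part in the results was not tested.

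The score formed a gradient with no gap at its limit. The highest member scored 2.58, the last member 1.492 and the first cell outside 1.487. All 6 genes had at least 1 UMI in 36 members, and each member had at least 4 of them. Calb2 was at 549.6 CPM in members against 50.9 CPM in other cells, and its level in single members ran from 0 to 2353 CPM with a median of 504.1 CPM. Tmeff2 was at 123.04 against 12.3 CPM and Nrp2 at 77.9 against 8.55 CPM. The other rule genes had smaller ratios, with Npy2r at 60.8 against 18.9 CPM, Adcy2 at 156.0 against 48.6 CPM and Rasgrp1 at 260.7 against 97.7 CPM.

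Whether the members formed a single cluster depended on the clustering. When all cells were clustered into 14 groups, numbered by fixed markers of each published cluster, 47 members (58.8%, 95% interval 47.2 to 69.6%) fell in cluster 7, whose markers are the rule genes. Another 25 members (31.2%, 21.3 to 42.6%) fell in cluster 14, whose markers are Gpr101, Ecel1 and Cxcl14. Of the other 8, 4 were in cluster 8, 2 in cluster 9 and 1 each in clusters 10 and 13. The members were 38.5% of the cells of cluster 7 and 25.0% of the 100 cells of cluster 14. The median score was 1.38 over cluster 7 and 1.24 over cluster 14, and cluster 10 came next at 0.24. The rule genes themselves differed between these subsets: Npy2r was at 81.5 CPM in the cluster 7 members and 6.69 CPM in the cluster 14 members, whereas Calb2 was at 443.1 and 772.7 CPM. Both barcode sets held both kinds of member, with 8 in cluster 7 and 6 in cluster 14 in set 1, and 39 and 19 in set 2. At a resolution of 0.7, clusters 7 and 14 merged and 72 members (90.0%) lay in a cluster of 221 cells. With components 6 and 7 kept, 72 members lay in a cluster of 218 cells, which held 116 cells of cluster 7 and 95 of cluster 14. With 14 clusters the members thus lay mainly in both of these, and the main comparison is repeated below for each. A ratio given below for members of a single cluster alone is over all remaining cells, the other members included.

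**Figure D1:**
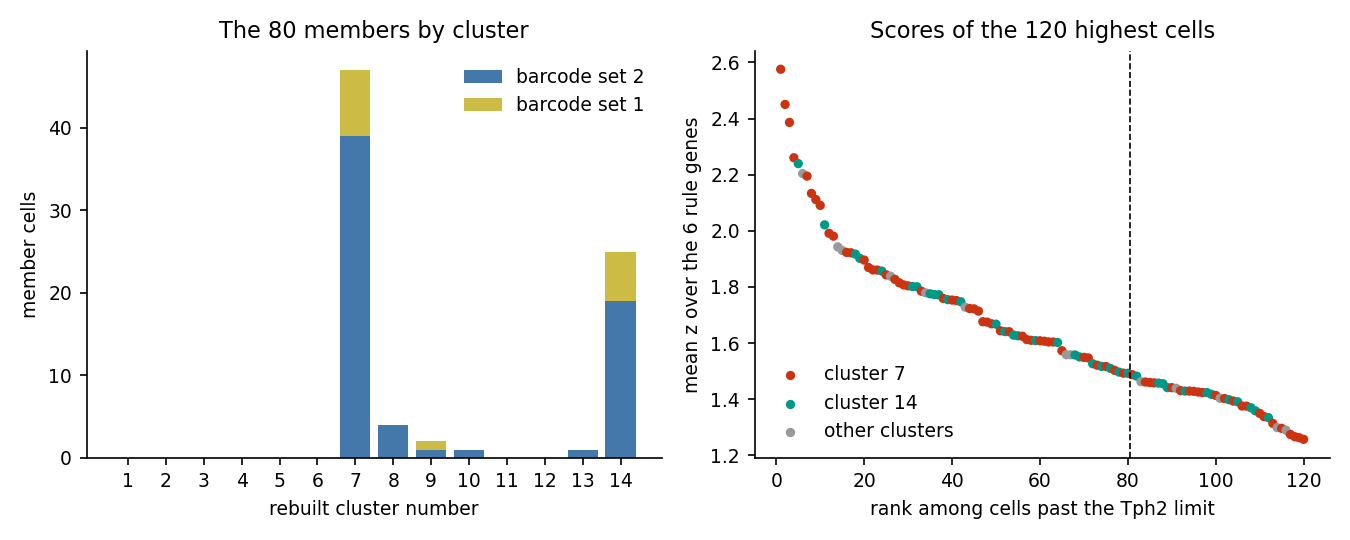
Left, number of members (bar height) in each of the 14 rebuilt clusters, divided by barcode set. Right, score (mean z over the 6 rule genes) against rank for the 120 highest cells past the Tph2 limit, coloured by cluster, with the dashed line after the last of the 80 members. Clusters 7 and 14 hold 47 and 25 members, and cells of both clusters are interleaved down to the limit, with the 4 highest scores in cluster 7.

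Of 19 serotonin phenotype genes tested, 1 was at least 2-fold higher in members (Htr5b, log2 ratio 1.03) and 1 at least 2-fold lower (En2), with a median of -0.12. Over all genes tested, 1.1% were at least 2-fold higher and 1.19% at least 2-fold lower. The sign of Htr5b turned with cluster 14 members alone, as given below. Members had to pass a limit of 1000 CPM of Tph2, and other cells did not. The authors had removed cells without Fev or with unusually little of it before deposit, so its detection in 80 of 80 members was set by that filter. Fev lay between 71.1 and 661.4 CPM with a median of 294.4 CPM in single cells. Its summed level was 321.8 CPM against 335.9 CPM in other cells, with a log2 ratio of -0.06 (-0.14 to 0.02). It was -0.10 for Slc6a4, -0.12 for Slc18a2 and 0.02 for the aromatic amino acid decarboxylase gene Ddc. Within the members, however, Slc6a4 was at 2500 CPM in the 47 of cluster 7 but at 1180 CPM in the 25 of cluster 14 (log2 ratio 1.08, 0.99 to 1.18), and Fev at 327.0 and 337.8 CPM.

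Markers of other cell types were low, after the authors had removed cells with unusually high levels of glial genes. Summed over each list, in members and other cells, oligodendrocyte genes were at 47.1 and 64.1 CPM (2 of 8 at 0 in members, Mag and Cldn11) and astrocyte genes at 7.08 and 22.7 CPM (Gja1 at 0). Microglial genes were at 0.732 and 3.10 CPM (5 of 8 at 0), vessel genes at 1.46 and 3.77 CPM (3 of 8 at 0) and blood genes at 0.732 and 0.297 CPM (2 of 4 at 0). Of the dopamine neuron genes, Th, Pitx3, Foxa2 and Lmx1a had 0 UMIs in members, and the list's 276.1 CPM was almost all En1, which is also a gene of the serotonergic lineage and was at 275.6 CPM. Immediate early genes summed to 396.0 CPM in members and 328.9 CPM in other cells.

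Against all other cells, 8395 genes had a mean of at least 10 CPM over the 2 groups. Of these, 92 were at least 2-fold higher in the members (1.1% of genes tested) and 100 at least 2-fold lower (1.19%). The counting interval of the ratio excluded 0 on the log2 scale for 92 of 92 and 100 of 100. The direction was the same in both barcode sets for 90 of the 92 and 100 of the 100, and the 2-fold limit was passed in each set by 67 and 79. These cells were chosen by expression, so the counts describe how the selected cells differ and are no test. The highest ratios belonged to an adhesion gene, a kinase, a chemokine, a cation channel and a pair of transcription factors. The lowest belonged to genes that mark other Pet1 neurons, including Pax5, Kit, Prph and Gad1.

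Pcdh8, a protocadherin, had the highest ratio of the genes tested besides the rule genes. It was at 29.8 CPM (24.7 to 35.6) in members and 5.24 CPM in other cells (log2 ratio 2.51, 2.22 to 2.79). Its level per member ran from 0 to 148.0 CPM with a median of 24.6 CPM, and in other cells the median was 0. Members of both barcode sets were above the other cells of their own set, at 45.0 against 6.37 CPM in set 1 and 26.8 against 4.61 CPM in set 2.

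Foxp1, a forkhead transcription factor, was the most abundant regulator among the 14 highest genes. Its level was 156.7 CPM (145 to 169) in members against 35.6 CPM in other cells (log2 ratio 2.14, 2.02 to 2.26). Single members ranged from 0 to 522.1 CPM with a median of 150.2 CPM, whereas the median of other cells was 27.4 CPM, and the ranges of single cells overlapped. The level was 169 against 32.8 CPM in set 1 and 154 against 37.2 CPM in set 2. Pou3f1, a POU-domain transcription factor, was at 30.5 against 6.92 CPM (log2 ratio 2.14) and Tshz2, a zinc finger gene, at 67.9 against 19.9 CPM (1.77).

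Alcam, an immunoglobulin-type cell adhesion molecule, had UMIs in 80 of 80 members. Single members ran from 26.4 to 618.7 CPM with a median of 164.7 CPM, and other cells from 0 to 852.1 CPM with a median of 36.9 CPM. The summed level was 191.9 against 56.4 CPM (log2 ratio 1.77, 1.66 to 1.87). Pcdh11x, another protocadherin, stood at 110.8 against 31.6 CPM (1.81, 1.67 to 1.95). Cxcl14, a chemokine, was at 94.2 against 19.9 CPM (2.24, 2.08 to 2.39), with single members from 0 to 687.4 CPM. This wide range followed the clusters, as described below.

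The other genes among the 14 highest were less abundant, apart from Fam46a, a noncanonical poly(A) polymerase gene now named Tent5a, at 127.4 against 31.2 CPM (log2 ratio 2.03). Prkg2, a cGMP-dependent kinase, was at 17.3 against 3.64 CPM (2.25) and Trpc5, a cation channel, at 18.8 against 4.15 CPM (2.18). Htr1f, a serotonin receptor, was at 18.1 against 4.59 CPM (1.98). Nabp1, a single-stranded DNA binding protein gene, was at 24.2 against 6.38 CPM (1.92), Fndc9 at 20.02 against 5.47 CPM (1.87) and Parm1 at 23.2 against 6.94 CPM (1.74). Each was higher in members in both barcode sets, as the choice of genes required, with the smallest ratio for Fndc9 in set 1 (0.89). Some of the 14 were uneven between the clusters of members. Fndc9 was at 8.29 CPM in cluster 7 members and 53.5 CPM in cluster 14 members, whereas Pou3f1 was at 27.3 and 14.5 CPM and Htr1f at 19.0 and 5.58 CPM. The level of Pou3f1 over all members was above both, since the 8 members of other clusters had a higher level.

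At the other end, Pax5, a paired-box transcription factor, had 1 UMI in all 80 members, or 0.244 CPM, against 44.3 CPM in other cells (log2 ratio -7.50, -12.81 to -5.03). Kit, a receptor tyrosine kinase, had 2 UMIs, or 0.488 against 44.8 CPM (-6.52, -9.57 to -4.67). Prph, the intermediate filament peripherin, was at 1.95 against 110.0 CPM (-5.82, -7.03 to -4.84). Gad1, an enzyme of GABA synthesis, was at 1.46 against 49.3 CPM (-5.07, -6.52 to -3.95). The other 6 of the 10 lowest were Hs3st4 (-4.55), Prkcq (-4.18), Nos1 (-4.06), Crip1 (-3.96), Fam19a2 (-3.69) and Hspb1 (-3.55), which encode a heparan sulfate sulfotransferase, a protein kinase C, neuronal nitric oxide synthase, a LIM-domain protein, a secreted protein and a small heat shock protein. All 10 were below 3.5 CPM in the members and, as the choice required, lower in both barcode sets.

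**Figure D2:**
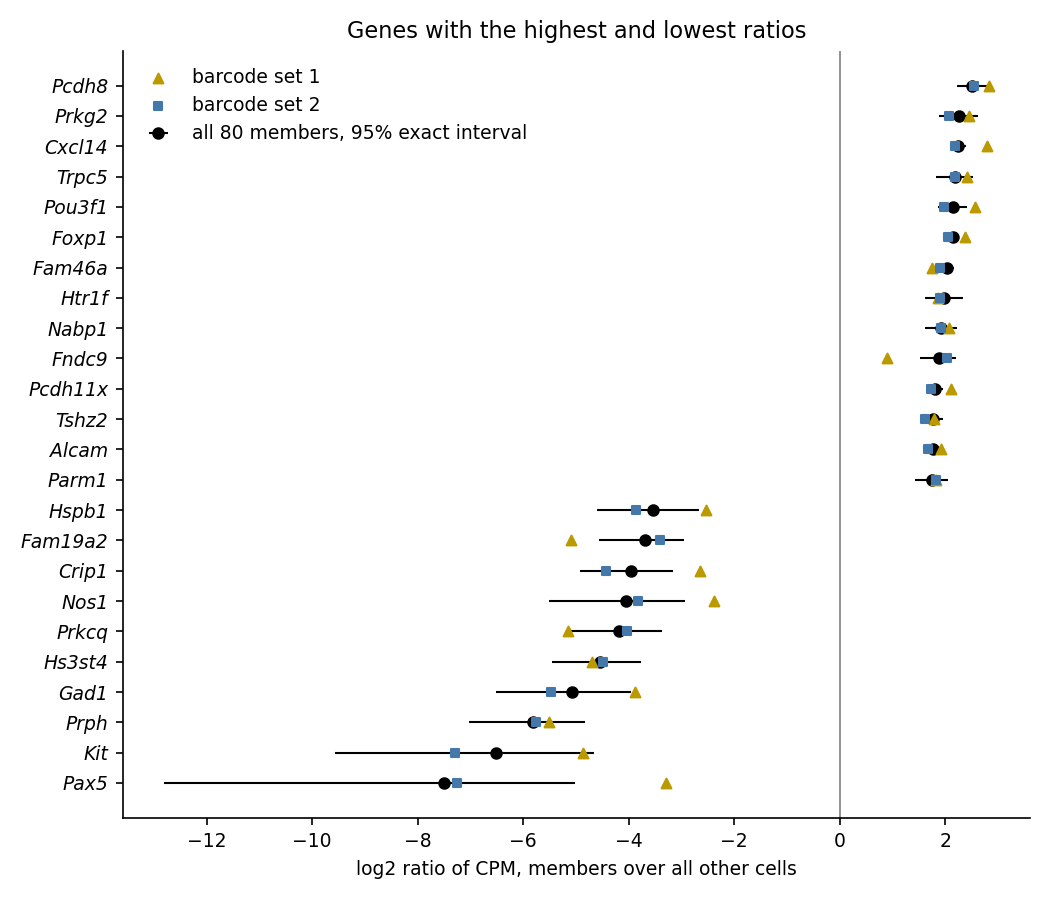
Log2 ratio of CPM in the 80 members over all other cells (x axis) for the 14 highest and 10 lowest genes chosen by the rule. Black points are all members with the 95% exact interval, triangles barcode set 1 and squares barcode set 2, where a set with 0 UMIs in members (Pax5 and Nos1 in set 1) is drawn at a floor of 3 UMIs. Genes were chosen to have both sets on the same side of 0, and the smallest ratio of a higher gene in a set is that of Fndc9 in set 1 (0.89).

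Promoter windows show the sequence next to the start of genes that lead the members. RefSeq windows (build GRCm38.p6, 250 bases before to 50 bases after the start) were found for 10 of the 14 highest genes, with 3 starts for Foxp1. They were searched on both strands for TGTTTAC, a forkhead motif, and CCGGAA, a motif of ETS factors. The first was in windows of 0 of the 10 genes and in 3.65% of all 32851 windows of this length. The second was in 1 of the 10 genes, Nabp1, and in 14.9% of all windows. A match of these letters is no evidence of binding, and a lack of one concerns only this window. The windows of Nabp1 (chr1:51478350-51478649, minus strand), of the first Foxp1 start listed (chr6:99520944-99521243, minus strand) and of Alcam (chr16:52453032-52453331, minus strand) are shown because these genes were higher in members of both clusters. Capitals mark the ETS motif.
Nabp1: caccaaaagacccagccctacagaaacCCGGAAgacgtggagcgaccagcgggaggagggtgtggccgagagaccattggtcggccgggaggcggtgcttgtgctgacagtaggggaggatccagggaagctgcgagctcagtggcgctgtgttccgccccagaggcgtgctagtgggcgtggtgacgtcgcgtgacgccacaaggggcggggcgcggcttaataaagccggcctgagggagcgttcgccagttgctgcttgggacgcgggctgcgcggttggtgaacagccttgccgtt
Foxp1: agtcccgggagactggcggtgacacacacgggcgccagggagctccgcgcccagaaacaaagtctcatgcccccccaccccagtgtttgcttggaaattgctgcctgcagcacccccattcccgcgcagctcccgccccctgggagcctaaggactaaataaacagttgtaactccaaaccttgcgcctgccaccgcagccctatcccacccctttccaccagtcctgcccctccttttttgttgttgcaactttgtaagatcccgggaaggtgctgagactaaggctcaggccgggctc
Alcam: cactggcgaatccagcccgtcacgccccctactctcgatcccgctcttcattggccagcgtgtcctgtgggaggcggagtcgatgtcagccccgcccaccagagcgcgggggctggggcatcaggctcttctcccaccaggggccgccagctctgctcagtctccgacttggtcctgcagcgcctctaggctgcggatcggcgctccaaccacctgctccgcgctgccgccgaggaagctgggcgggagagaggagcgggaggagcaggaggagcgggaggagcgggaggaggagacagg

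Of 24 transcription factor genes tested, 4 were at least 2-fold higher (Foxp1, Pou3f1, Lmo2 and Mn1) and 7 at least 2-fold lower, with a median log2 ratio of -0.17 over the list against 0.00 over all genes tested. These counts, and those of the lists that follow, stand beside 1.1% of all genes tested that were higher and 1.19% that were lower. Lmo2, a LIM-only cofactor, was at 13.7 against 6.55 CPM, and Mn1, a transcriptional coregulator, at 15.1 against 6.25 CPM. In barcode set 2, with 65 of the members, Lmo2 was short of 2-fold at 0.74 (0.28 to 1.17), against 1.91 in set 1. Mn1 had a log2 ratio of 2.30 with cluster 14 members alone and 0.35 with cluster 7 members alone. The lower genes included, besides Pax5, Pou3f3 (log2 ratio -2.44), Rorb (-1.80), Maf (-1.64), Bcl11a (-1.41) and Tcf4 (-1.24). With cluster 14 members alone, Bcl11a was at -0.40 and Tcf4 at -0.26, short of 2-fold. Nr2f2, an orphan nuclear receptor, was at 37.1 against 19.4 CPM (0.94, 0.69 to 1.17), short of 2-fold. En2, a homeobox gene of the midbrain and hindbrain, was in the serotonin list and stood at 14.9 against 42.6 CPM (-1.52, -1.91 to -1.15; -0.71 with cluster 14 members alone), whereas its paralogue En1 was at 275.6 against 348.0 CPM (-0.34).

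Transmitter genes other than those of serotonin differed by transmitter. Of 4 genes tested, 2 were at least 2-fold lower and 0 higher. Gad2, the second GABA-synthesising enzyme, was at 16.6 CPM (12.9 to 21.0) in members against 116.3 CPM (log2 ratio -2.81, -3.17 to -2.47). The median member had 0 CPM and the highest 518.5 CPM. Cluster 7 members had 7.60 CPM of Gad2 and cluster 14 members 11.2 CPM, both below the level over all members. The other 8 members were above it. Slc17a8, the vesicular glutamate transporter VGLUT3, was at 192.4 against 157.2 CPM (0.29, 0.19 to 0.39). Its single-cell median was 114.7 CPM in members and 36.4 CPM in other cells, and its level in clusters 9, 10, 11 and 13, all over 300 CPM, was above that of the members. By subset, cluster 7 members had 189.9 CPM, cluster 14 members 99.2 CPM and the other 8 members 490.9 CPM.

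Few neuropeptide precursors were expressed well enough to be compared. Of the 4 tested, Ghrh, growth hormone releasing hormone, was at 19.3 against 6.95 CPM (log2 ratio 1.47, 1.12 to 1.81) and Sst, somatostatin, at 3.66 against 28.9 CPM (-2.98, -3.82 to -2.25). Over all cells, Sst was highest in clusters 14 and 13 (470.2 and 386.4 CPM), and its median over the 14 clusters was 0.98 CPM, below the level over all members. Of the 15 UMIs of Sst in members, 14 were in the 25 cluster 14 members, at 15.6 CPM. That level was less than 2-fold below the other cells, and the level of the remaining members was far lower. Adcyap1, the precursor of PACAP, was at 14.4 against 6.86 CPM over all members (1.07), but in set 1 it was lower, at 3.00 against 5.63 CPM. It was also lower in the 47 cluster 7 members, at 1.73 CPM (-2.06) from 5 UMIs. In the 25 cluster 14 members it was higher, at 25.6 CPM (1.88) from 23 UMIs. The rest of its UMIs, more than in either subset, lay in the 8 members of other clusters. Ghrh was at 1.68 with cluster 7 members alone and 0.61 with cluster 14 members alone. The granins Scg2 and Chgb, proteins of dense-core vesicles, were at 2874 against 1695 CPM (0.76) and 2157 against 1199 CPM (0.85). Of 12 genes of peptide processing tested, 1 convertase was at least 2-fold higher (Pcsk5, 1.05) and 1 at least 2-fold lower (Pcsk6, -3.42), and the median of the list was 0.59.

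Among adhesion molecules of the immunoglobulin and neurexin families, 2 of 20 tested were at least 2-fold higher and 1 lower. Cadm1, a synaptic adhesion molecule, had UMIs in 80 of 80 members, between 93.0 and 817.6 CPM. Its summed level was 308.1 against 113.3 CPM (log2 ratio 1.44, 1.36 to 1.53), alongside Alcam. Cntn4, a contactin, was at 2.20 against 18.2 CPM (-3.05). The IgLON genes Ntm and Lsamp had ratios of 0.87 and 0.64, and Opcml of -0.63. Of 13 genes of the slit, netrin and ephrin systems, 3 ligands were at least 2-fold higher. These were Slit2 at 143.3 against 54.1 CPM (1.41, 1.28 to 1.53), Efna5 at 49.6 against 16.1 CPM (1.62, 1.40 to 1.83) and Efnb3 at 52.0 against 19.8 CPM (1.39, 1.18 to 1.59). With cluster 7 members alone, Efna5 was at 0.69 and Efnb3 at 0.98, short of 2-fold. The slit receptor Robo2 was lower, at 22.5 against 73.3 CPM (-1.71, -2.02 to -1.41). Of 14 semaphorin, plexin and related genes besides Nrp2, 0 were at least 2-fold higher and Sema6a was lower (-1.60).

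Receptor genes moved in both directions, with 5 of 29 at least 2-fold higher and 3 lower. The higher ones were Ptger3, a prostaglandin E2 receptor (17.8 against 6.30 CPM), Htr2c (16.8 against 6.72 CPM, log2 ratio 1.33), the cannabinoid receptor Cnr1 (24.7 against 10.4 CPM, 1.24), the neuregulin receptor Erbb4 (48.3 against 20.6 CPM, 1.23) and the metabotropic glutamate receptor Grm7 (38.8 against 18.4 CPM, 1.08). Kit, the orexin receptor Hcrtr1 (7.08 against 69.0 CPM, -3.28) and the histamine receptor Hrh3 (8.30 against 28.7 CPM, -1.79) were lower. For Cnr1, cluster 14 members alone gave a log2 ratio of 2.18 and cluster 7 members alone -0.46. The same pair of values was 2.56 and 0.36 for Htr2c and 2.40 and 0.34 for Erbb4, so these 3 were past 2-fold in cluster 14 members and not in cluster 7 members. By barcode set, Htr2c was at 0.63 in set 1 and Erbb4 at 0.89 in set 2, each short of 2-fold. The other orexin receptor gene, Hcrtr2, was at 37.1 against 24.9 CPM over all members (0.57, 0.33 to 0.81), but its log2 ratio was 0.92 with cluster 7 members alone and -2.19 with cluster 14 members alone.

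Signalling and channel genes differed by list. Besides Adcy2, 0 of 18 cyclic AMP genes were past 2-fold in either direction, and the list's median was -0.01. Of 20 genes of Ras, diacylglycerol and RGS signalling, 3 were higher (Rgs10, Prkce and Plcb1) and 1 lower (Prkcq). For Plcb1, cluster 7 members alone gave a log2 ratio of 1.43 and cluster 14 members alone -0.24, whereas Prkce was at 0.94 and 3.06. Rgs10, which speeds the switching-off of G proteins, was at 329.8 against 108.5 CPM (log2 ratio 1.60, 1.52 to 1.68), with a single-cell median of 363.4 CPM in members and 27.6 CPM in other cells. Of 38 voltage-gated and leak channel genes, 5 were higher (Trpc5, Kcnip1 at 1.56, Kcnab1 at 1.21, Kcnip4 at 1.15 and Kcnc2 at 40.8 against 19.0 CPM) and 2 lower, among them Kcnj6 (-1.35). In barcode set 1, Kcnip1 was at 0.14 (-2.15 to 1.71) and Kcnip4 at 0.55 (-0.78 to 1.61), against 1.59 and 1.15 in set 2. Kcnj6 was also short of 2-fold in set 1 (-0.96), and Kcnc2 in set 2 (0.94). Trpc5 was at 0.75 with cluster 7 members alone and 3.71 with cluster 14 members alone. Against the non-member cells outside both clusters, Trpc5 was past 2-fold in cluster 7 members too, as given below. Of 17 ligand-gated channel genes, Grin3a was lower (-1.27) and 0 were past 2-fold higher.

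Of 15 calcium-binding protein genes besides Calb2, Calb1 was higher and 4 were lower. Calb1, calbindin, was at 225.3 against 95.9 CPM (log2 ratio 1.23, 1.13 to 1.33). Its ratio was 2.31 with cluster 14 members alone and 0.61 with cluster 7 members alone. Vsnl1, visinin-like 1, was at 137.0 against 751.3 CPM (-2.46, -2.58 to -2.34), with a median of 107.9 CPM in members and 803.0 CPM in other cells. S100b (-1.80), which is also in the astrocyte list, S100a16 (-1.65) and the calcium release channel gene Ryr2 (-1.31) were the other 3. Over all cells, S100b was highest in cluster 12 (401.3 CPM), and its median over clusters was 4.87 CPM. Cygb, cytoglobin, was at 137.0 against 348.3 CPM (-1.35, -1.47 to -1.23). Of 12 neurofilament and synuclein genes, Nefl was higher (285.9 against 135.0 CPM, 1.08) and Prph lower, and of 6 heparan sulfate enzyme genes, Hs3st4 and Hs3st1 (-1.28) were lower. Nefl passed 2-fold only with the barcode sets pooled, at 0.93 in set 1 and 0.999 in set 2, and Hs3st1 was at -0.81 with cluster 7 members alone.

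The 2 subsets of members shared many of these differences. Each was set against the non-member cells outside clusters 7 and 14. Of the 92 genes higher over all 80 members, 56 (60.9%) were past 2-fold in both subsets, 14 in cluster 7 members alone and 22 in cluster 14 members alone. Of the 100 lower genes, 76 (76.0%) were past it in both. For single subsets, 1.09% of genes tested were at least 2-fold higher and 1.49% lower in cluster 7 members, and 3.72% and 3.51% in cluster 14 members. Both subsets were part of the 80 cells, so these counts overlap by construction.

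Foxp1 was at 154.0 CPM in cluster 7 members and 198.5 CPM in cluster 14 members, and Alcam at 187.9 and 227.5 CPM. Pcdh8 was at 32.5 and 26.8 CPM, and the interval of their ratio included 0 (log2 ratio 0.28, -0.38 to 0.99). The same held for Tshz2 at 67.3 and 63.6 CPM (0.08, -0.35 to 0.54) and Nabp1 at 26.6 and 20.1 CPM (0.41, -0.35 to 1.23). Gad1 was at 1.38 and 1.12 CPM and Prph at 2.42 and 1.12 CPM in the respective subsets, with 1 UMI of each in cluster 14 members.

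**Figure D3:**
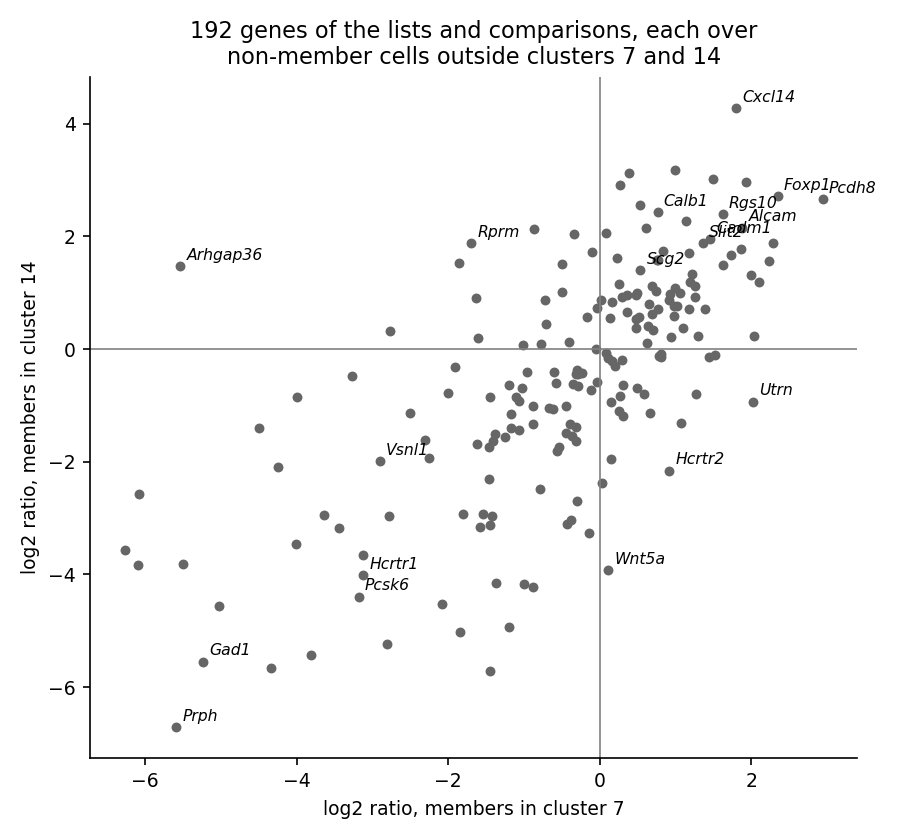
Log2 ratio of CPM over the non-member cells outside clusters 7 and 14, for members in cluster 7 (x axis) and members in cluster 14 (y axis), with 1 point for each of 192 genes of the lists and comparisons, and a floor of 3 UMIs where a subset had none. Foxp1, Pcdh8 and Alcam lie high in both, Gad1 and Prph low in both, and Arhgap36 and Hcrtr2 lie on opposite sides of 0 in the 2 subsets.

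The subsets also differed from each other. Of 8415 genes, 199 were at least 2-fold higher in cluster 7 members (2.36%) and 314 at least 2-fold lower (3.73%). Cluster 7 members had more Wnt5a, a Wnt ligand (54.9 against 3.35 CPM, log2 ratio 4.04, 2.46 to 6.33, from 3 UMIs in cluster 14 members). They also had more Utrn, the dystrophin relative utrophin (103.6 against 13.4 CPM, 2.95), and Hcrtr2 (47.0 against 5.58 CPM, 3.07, 1.82 to 4.72). Sln, sarcolipin, was at 37.6 CPM with 0 UMIs in cluster 14 members, a log2 ratio of 3.49 against a floor of 3 UMIs over the group, with a lower 95% limit of 3.17. Htr5b, a serotonin receptor gene, was at 33.5 against 11.2 CPM (1.59).

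Cluster 14 members had far more Arhgap36, a GTPase activating protein gene (313.3 against 2.42 CPM, or -7.02, -8.35 to -5.96, for cluster 7 members over cluster 14 members). Tac1, the substance P precursor, was at 32.3 CPM with 0 UMIs in cluster 7 members, and Adcyap1 at 25.6 against 1.73 CPM (-3.89). Bdnf, a neurotrophin, was at 70.2 against 5.87 CPM (-3.58), Rprm at 238.6 against 20.03 CPM (-3.57), and Cxcl14 at 272.1 against 48.7 CPM (-2.48, -2.79 to -2.18). Trpc5 (55.8 against 7.60 CPM), Efna5 (124.9 against 27.3 CPM), Calb1 (481.7 against 150.9 CPM) and Cnr1 (47.9 against 7.94 CPM) were likewise higher in cluster 14 members. Against the non-member cells outside both clusters, cluster 7 members had a log2 ratio of 1.29 for Trpc5, 0.99 for Efna5, 0.76 for Calb1 and -0.27 for Cnr1. Cluster 14 members were shallower, with a median of 34692 UMIs against 62370, and the part of depth in these differences was not tested.

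**Figure D4:**
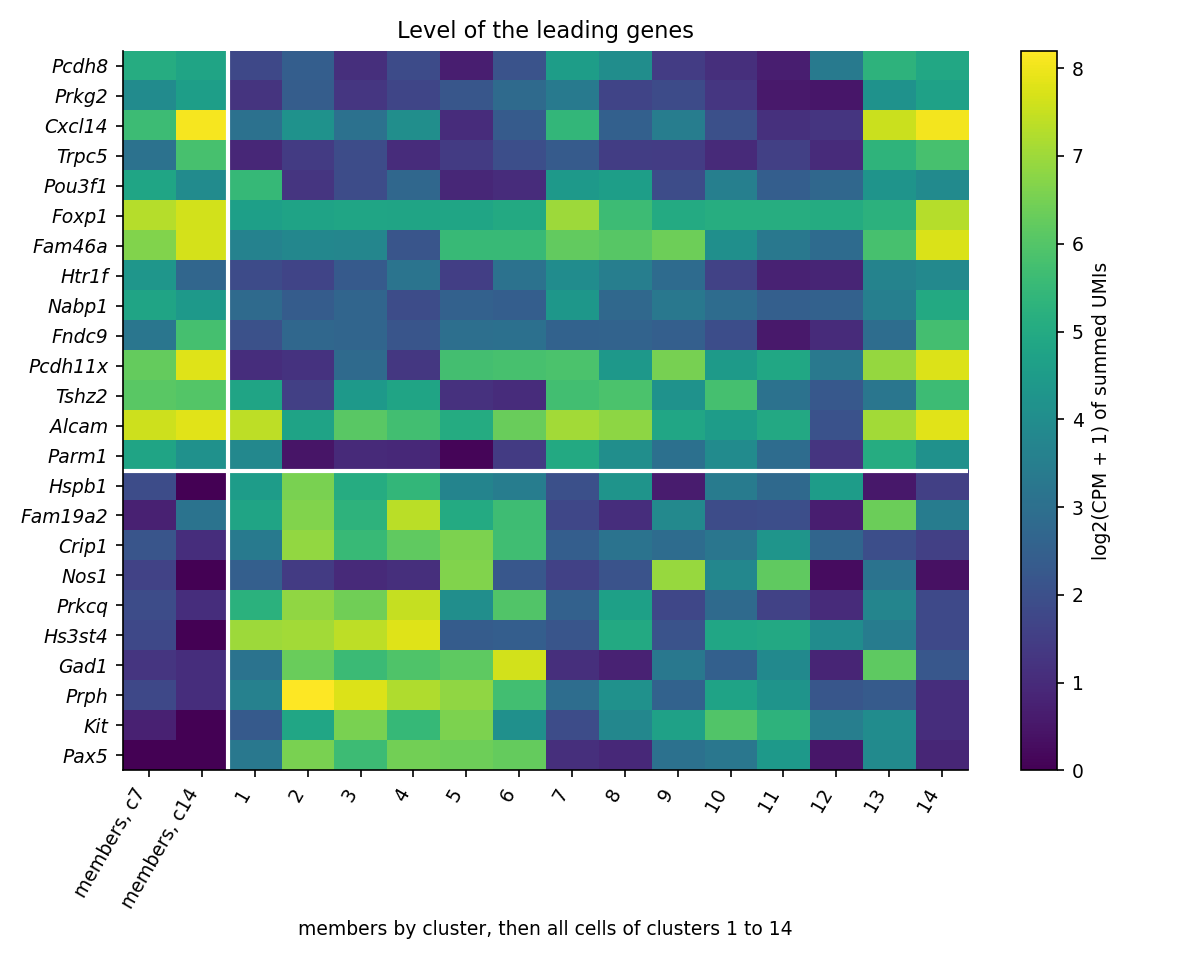
Level as log2(CPM + 1) of summed UMIs (colour) for the 14 highest genes (above the white line) and the 10 lowest (below it). The first 2 columns are the members in cluster 7 and in cluster 14, and the other columns all cells of clusters 1 to 14, members included. Foxp1 is brightest in clusters 7 and 14, Cxcl14 in clusters 13 and 14, and Prph, Pax5 and Prkcq are bright in clusters 2 to 4 and dark in both member columns.

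Over whole clusters, the leading genes had several orders. Cluster 14 led for Foxp1 with 156.6 CPM, ahead of cluster 7 with 126.4 CPM, and cluster 8 followed with 48.3 CPM. For Alcam, cluster 14 had 227.8 CPM and cluster 1 had 165.2 CPM, with clusters 13 and 7 at 133.6 and 131.5 CPM. Pcdh8 was highest in cluster 13 (38.3 CPM), followed by clusters 14 (29.4 CPM) and 7 (22.4 CPM). Pou3f1 was highest in cluster 1 (43.8 CPM), above the members' 30.5 CPM. Among the cells of cluster 7, the 47 members differed little from the 75 others, with 11 genes at least 2-fold higher (0.134%) and 12 lower (0.146%) of 8235. In cluster 14 the counts were 57 (0.668%) and 93 (1.09%) of 8538.

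Sets of 80 non-member cells were drawn by the markers of each other cluster, and the 3 nearest to the members in mean expression were compared. Over 1994 variable genes, Pearson's r with the members was 0.959 for the Rorb, Nr2f2 and Wnt4 set, 0.958 for the Gpr101, Ecel1 and Cxcl14 set and 0.957 for the Rspo3, Foxa1 and Adgrl2 set. These correlations are across genes, which are not independent. Among the 80 highest cells for the Gpr101, Ecel1 and Cxcl14 markers, 15 were members, and they were left out of that set. These sets had no limit on Tph2.

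Members had 175 genes at least 2-fold higher (2.1%) and 87 lower (1.04%) than the Rorb set. Calcr, the calcitonin receptor, was at 56.9 against 0.192 CPM from 1 UMI (log2 ratio 8.21, 5.71 to 13.52), Rprm at 73.7 against 0.770 CPM (6.58) and Erbb4 at 48.3 against 1.54 CPM (4.97). Bdnf, at 5.23, lay between Rprm and Erbb4, and Gpc5, a glypican, followed at 4.89. Rorb, which selected that set, is no finding, and Gal, the galanin precursor (-4.28), Hcrtr1 (-3.61), Hs3st4 (-3.42) and Prph (-3.40) were lowest.

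Against the Gpr101 set the counts were 94 higher (1.1%) and 217 lower (2.53%). Sln (26.6 against 1.15 CPM, log2 ratio 4.54), Utrn (2.89), Hcrtr2 (37.1 against 5.35 CPM, 2.79), Cbln2, a synapse organiser (2.49), and Trim36 (2.43) were highest. Cluster 14 members taken alone had 0 UMIs of Sln, Utrn at 13.4 CPM and Hcrtr2 at 5.58 CPM, against 1.15, 10.3 and 5.35 CPM in the Gpr101 set. Sst was at 3.66 against 794.2 CPM (-7.76, -8.60 to -7.04), and Nrgn (-7.14), Nts, neurotensin (-7.06), Nfib (-6.45) and Bmp3 (-6.43) were also low. Of the 80 cells of that set, 52 were in cluster 14 and 25 in cluster 13, where Nrgn, Nts, Nfib and Bmp3 had their highest level of all clusters. That set had a median of 649.6 CPM of Tph2, below the limit set for members. Foxp1 was close in both, at 156.7 and 127.6 CPM (0.30, 0.10 to 0.49).

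Against the Rspo3 set, 169 genes were at least 2-fold higher (2.02%) and 144 lower (1.72%). Fndc9 (log2 ratio 6.67, from 1 UMI in that set), Sertm1 (5.39), Cxcl14 (94.2 against 4.33 CPM, 4.44), Arhgap36 (4.03) and Pcdh8 (29.8 against 2.17 CPM, 3.78) were highest. For Arhgap36 this held in cluster 14 members (313.3 CPM), while cluster 7 members had 2.42 CPM, under the 4.33 CPM of that set. Kit (-5.73), Fgf18 (-5.43), Nos1 (-5.35), the oestrogen receptor gene Esr1 (-4.57) and Cntn4 (-4.04) were lowest. Foxp1 was at 156.7 against 38.2 CPM (2.04).

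The manually sorted cells were not used to choose the members and carry the score in labelled groups. The same score, scaled over the 70 cells, was highest in Npy2r::cre cells of the caudal DR, with a median of 1.31 (lowest -0.47, highest 1.74, SD 0.73, n = 10 cells). In 9 of these 10 cells it was above 0. Next were Npy2r-cre cells of the rostral DR (median 0.12, -0.63 to 0.81, n = 9) and Sert-cre cells of the caudal DR (0.09, -0.28 to 1.13, n = 6). The ventromedial Sert-cre group had a median of -0.10, but 1 of its cells had the highest score of all, 1.83. The other groups had medians between -0.53 and -0.22. Npy2r is both a rule gene and the driver of 2 groups, and without it the caudal Npy2r-cre median was 1.63 and the rostral one 0.22. The order after the caudal Npy2r-cre group depended on the score: the caudal Sert-cre median was -0.20 without Npy2r, below the -0.06 of the ventromedial Sert-cre group, and 0.52 on a score from ranks, above the 0.19 of the rostral Npy2r-cre group. The labels do not tie these cells to animals, so cells were not treated as replicates and no test was made.

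**Figure D5:**
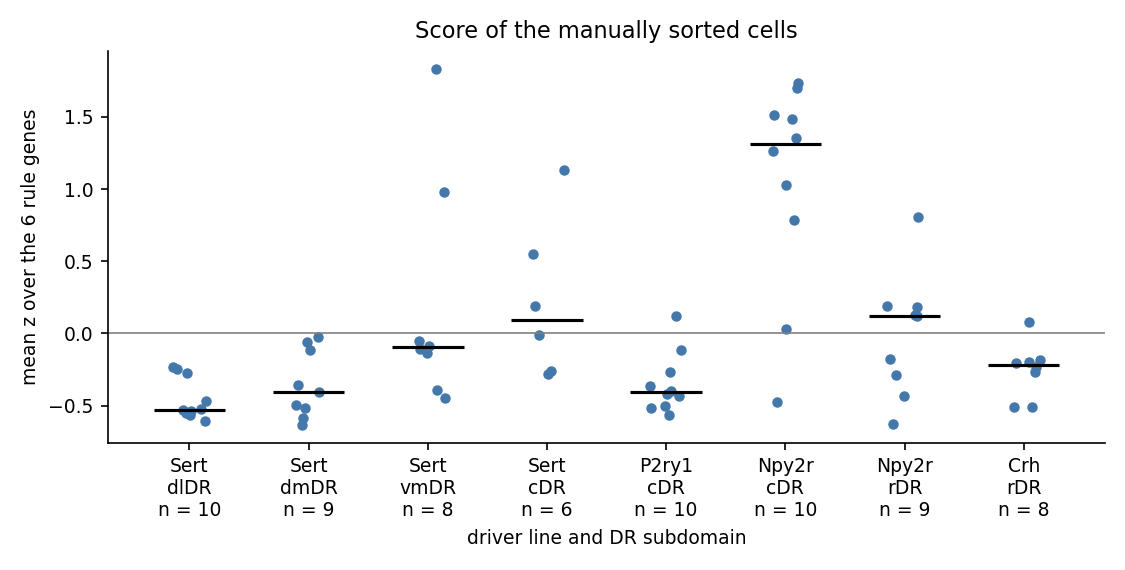
Score (mean z over the 6 rule genes, scaled over the 70 manually sorted cells) of each cell, 1 point per cell, by driver line and DR subdomain (dl, dorsolateral; dm, dorsomedial; vm, ventromedial; c, caudal; r, rostral). Lines are group medians. Caudal Npy2r-cre cells have a median of 1.31, above the medians of the other 7 groups, and their range overlaps with that of each other group.

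Genes outside the rule were also compared in these cells. Of the 92 genes higher in the 10X members, 79 had a group median above 0 in the manually sorted cells. In 70 of these 79 (88.6%), the caudal Npy2r-cre median was above the median of the other groups, against 48.3% of 8029 genes tested. It was the highest of the 8 groups for 36 genes (45.6%, against 8.81%). Of the 100 lower genes, 95 had a median above 0 in some group, and the caudal Npy2r-cre median was below that of the other groups for 82 (86.3%, against 50.9%). The caudal Sert-cre median was above the others for 50 of the 79 higher genes (63.3%, against 51.5%) and below them for 64 of the 95 lower genes (67.4%, against 47.6%). The P2ry1-cre median was below for 70 of the lower genes (73.7%, against 60.5%) but above for 18 of the higher genes (22.8%, against 38.1%). Genes are not independent of each other, so these shares are descriptions.

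Foxp1 had reads in 10 of 10 caudal Npy2r-cre cells, from 3.16 to 191.2 CPM with a median of 52.5 CPM. The other 7 groups had medians from 4.32 to 22.5 CPM, and their cells overlapped with those of this group. Nabp1 had a median of 30.7 CPM with reads in 10 of 10 cells, and medians of at most 0.33 CPM elsewhere. Pcdh11x was at a median of 72.8 CPM (8 of 10 cells) against at most 0.18 CPM elsewhere, and Alcam at 126.4 CPM (8 of 10 cells) against at most 35.7 CPM. Rgs10 ranged from 46.2 to 678.4 CPM with a median of 199.9 CPM, against at most 38.3 CPM, and Cadm1 had a median of 517.5 CPM against at most 259.4 CPM. Cxcl14 was at a median of 28.4 CPM in 8 of 10 cells with reads. Pcdh8 had reads in 5 of these 10 cells and a median of 3.04 CPM, below the 6.96 CPM of caudal Sert-cre cells.

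Several genes low in the members were low here, but in other groups too. Pax5 had reads in 1 of 10 caudal Npy2r-cre cells, at 2.49 CPM, and in 8 of 9 rostral Npy2r-cre cells with a median of 12.1 CPM, and its median was also 0 in caudal and ventromedial Sert-cre and P2ry1-cre cells. Prph had a median of 0 CPM (3 of 10 cells) against 336.6 CPM in dorsolateral Sert-cre cells, and was at 0 in P2ry1-cre and rostral Npy2r-cre cells as well. Vsnl1 had a median of 87.4 CPM against 806.0 CPM in rostral Npy2r-cre cells, close to the 93.0 and 98.4 CPM of the other caudal groups. Arhgap36, Bdnf and Ecel1, which were higher in cluster 14 members than in cluster 7 members, each had a median of 0 CPM in the caudal Npy2r-cre group, with reads in 3, 2 and 0 of its 10 cells. Over all clusters of 10X cells Bdnf and Ecel1 were highest in cluster 14, but Arhgap36 in clusters 2, 6 and 4. In the same caudal group, Wnt5a had a median of 16.3 CPM with reads in 8. Wnt5a was higher still in rostral Npy2r-cre cells, with a median of 74.8 CPM.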

How the data were processed

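By the submitters' processing notes, which name Cell Ranger 3.0.2, STAR 2.5.4, R 3.5.3 and the build mm10, the authors processed the 10X reads, filtered cells and genes, and deposited UMI counts without normalization of 17231 genes. For the 70 manually sorted cells (SMART-Seq v4 and Nextera XT libraries), the authors deposited read counts per gene. Columns named Crf were matched to the samples titled Crh, and Tent5a and Tafa2 were read as Fam46a and Fam19a2. The members and gene lists were chosen with earlier results of these data known.

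UMIs were summed over members and over other cells and scaled to CPM, which compares shares of RNA and not amounts per cell. Genes with a mean of the 2 levels of at least 10 CPM were compared, and those past 2-fold were counted. Manually sorted cells had between 756872 and 7664103 reads on genes. A count of 0 was set to a floor of 3 UMIs for a ratio. Clusters were rebuilt with Seurat 5.3.0 in R 4.3.3 (2000 variable genes, components 1 to 5 and 8 to 50, 20 neighbours, resolution 0.9). Scrublet in scanpy 1.11.5, run in each barcode set, called 14 doublets, 0 of them members, and these cells were kept. The remaining tools were Python 3.11.15 with pandas 2.3.3, numpy 2.4.6, scipy 1.17.1 and matplotlib 3.10.9.

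Named genes were the 14 highest and 10 lowest ratios with the same sign in both barcode sets (without rule genes, Tph2, mitochondrial, ribosomal and sex-linked genes), listed genes past 2-fold with up to 4 others of at least 20 CPM, the 5 highest and lowest against each of the 3 nearest sets, and genes that the study names for cluster 7. Genes of the comparison between the member subsets, and those read in manually sorted cells, were chosen after their values were seen. The calculation was tested on simulated data with known ratios. Some genes that this rule names are not reported here.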

Additional observations from a re-analysis of the deposited data

Results flagged for a closer look

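Single manually sorted cells stood far from the rest of their group in 17 of 53 sets of values checked (the score and the CPM of Foxp1, Alcam, Pcdh8, Cxcl14, Pax5 and Prph in each group, without 3 sets at 0 in every cell). Chance gives about 1 in 20 for normally distributed values, and many of these sets hold mostly zeros. Each was the highest cell of its group, measured by its gap to the next cell. For Foxp1 these were caudal Npy2r-cre cell 7 (191.2 CPM), dorsomedial Sert-cre cell 4 (67.7 CPM) and rostral Crh-cre cell 5 (47.3 CPM). For Pcdh8 they were caudal Npy2r-cre cell 10 (224.8 CPM), caudal Sert-cre cell 6 (113.3 CPM), rostral Npy2r-cre cell 6 (32.2 CPM), P2ry1-cre cell 3 (16.9 CPM), dorsomedial Sert-cre cell 8 (7.87 CPM) and rostral Crh-cre cell 4 (4.51 CPM). For Cxcl14 they were caudal Npy2r-cre cell 10 (153.8 CPM), rostral Npy2r-cre cell 6 (46.3 CPM), ventromedial Sert-cre cell 7 (14.9 CPM) and rostral Crh-cre cell 3 (9.07 CPM). For Pax5 they were ventromedial Sert-cre cell 3 (31.0 CPM), caudal Npy2r-cre cell 7 (2.49 CPM) and P2ry1-cre cell 8 (0.483 CPM), and for Prph caudal Npy2r-cre cell 9 (22.9 CPM).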

How the results depend on the processing

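The counts of genes past 2-fold (92 higher, 100 lower) moved by over 1.5 times with the level filter, to 243 and 311 at a mean of 2 CPM, to 39 and 33 at 30 CPM and to 1124 and 810 with no filter. They were 199 and 205 with the 15 members of barcode set 1 alone. Leaving out each rule gene, taking 40 or 120 cells, dropping the Tph2 limit, thinning to 20000 UMIs, using barcode set 2 alone, comparing only cells past the Tph2 limit, averaging single cells or leaving out doublet calls gave 70 to 114 higher and 86 to 115 lower. Thinning kept 55 of the 80 members, and leaving out a rule gene kept 55 (Nrp2), 61 (Npy2r), 64 (Tmeff2 and Calb2 each), 70 (Adcy2) or 71 (Rasgrp1). Added after seeing the data, members of cluster 14 alone gave 298 and 282, and members of cluster 7 alone 69 and 116. Both were set against all remaining cells, the other members included. Of the 14 highest genes, 12 to 14 stayed past 2-fold in these settings, and 10 of the 10 lowest did. The number of members in cluster 7 was 72 at a resolution of 0.7 and 72 with components 6 and 7 kept, where cluster 7 took in 100 and 95 of the 100 cells of cluster 14, 46 without the rule genes and 47 at the higher resolution. Among genes past 2-fold, signs turned for Htr5b (-0.27) and Plcb1 (-0.24) with cluster 14 members alone, for Cnr1 (-0.46) and Adcyap1 (-2.06) with cluster 7 members alone, and for Adcyap1 (-0.91) in barcode set 1. The cause was not tested. Of 2700 values of named genes over these settings, 2122 stayed within the counting interval, 573 moved outside it and 5 were the turns above. Genes short of 2-fold changed sign in 30 values, 26 of them outside the interval. Low genes are limited by depth, since 1 UMI over all members is 0.244 CPM. No paired analysis was possible because no test was made and replicate numbers of single cells name no animal.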

Other observations

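Cluster 14 was split by the Tph2 limit of the selection, and somatostatin differed across that split. Sst was at 1439 CPM (1367 to 1513) in its 34 cells under the limit, 100.1 CPM (85.3 to 116.7) in its 41 non-member cells past it and 15.6 CPM (8.53 to 26.2) in its 25 members. Gad2 had the same order, at 87.2, 24.6 and 11.2 CPM. Foxp1 had the opposite order, at 102.6, 168.2 and 198.5 CPM, and Cxcl14 was at 275.1, 255.4 and 272.1 CPM. Pdyn, the dynorphin precursor, was at 102.6, 256.0 and 189.5 CPM. These genes were chosen after their values were seen, and Tph2 itself set the split.

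Of the cells under the Tph2 limit, 8 scored at or above the lowest member, 6 of them in cluster 14 and 1 in cluster 13. Below the level filter, Gpr101, an orphan G protein-coupled receptor gene, was at 14.6 against 2.22 CPM and Ecel1, an endopeptidase gene, at 9.03 against 1.38 CPM over all members. Both are markers of cluster 14, and the members in that cluster had 42.4 CPM of Gpr101 and 40.1 CPM of Ecel1. The members in cluster 7 had 1 UMI of Ecel1, or 0.345 CPM, below the other cells.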
